A study of Mus musculus with 4 samples.

Results

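The genes described here are 10 transcription factors that regulate the trophectoderm, the outer cell layer of the mouse blastocyst: Cdx2, Elf5, Tfap2a, Tfap2c, Gata2, Gata3, Hand1, Ascl2, Tead4 and Ets2. They were chosen by name, and all 10 were found among the 28250 genes for which expression values were deposited. Poly(A) RNA-seq was made from TBV2 cells, a mouse embryonic stem cell (ESC) line of 129/SvP origin that is grown on feeder cells, in medium with LIF. The 2 libraries of the control group came from cells kept for 24 h in solvent, and the 2 libraries of the treated group came from cells kept for 24 h in 5 µM MS-275, an inhibitor of class I histone deacetylases. The study used wild-type and EGFP-transgenic TBV2 cells, and which of them gave the RNA is not given in the sources used here. All libraries come from this 1 cell line, and nothing in the labels says that the replicates were separate cultures, so each p-value measures only the spread between these libraries. The fits estimate this spread for a gene in part from all genes tested, and limma-voom with the replicate block takes it wholly from them.

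The trophectoderm separates from the inner cell mass in the first lineage decision of the mouse embryo and later forms the trophoblast of the placenta. In outer cells YAP enters the nucleus and acts with TEAD4 to switch on Cdx2, and Gata3 responds to TEAD4 as well. Tfap2c, Elf5 and Ets2 act with Cdx2 to maintain trophoblast stem cells, while Ascl2 and Hand1 act later, in the spongiotrophoblast and in giant cells. ESC come from the inner cell mass and normally hold this programme silent, in part through Oct4 (Pou5f1) and, at Elf5, through DNA methylation of the promoter.

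With MS-275, 6 regulators had values in both treated libraries above both solvent libraries: Cdx2, Elf5, Tfap2a, Gata2, Gata3 and Hand1. Tead4, the factor upstream of Cdx2 and Gata3, was lower in both treated libraries, and the values of Tfap2c, Ascl2 and Ets2 overlapped between the groups. Of all 20336 genes tested, 32.3% lay wholly above and 12% wholly below solvent in the same sense, so treated libraries above solvent were common in these data. In limma without a replicate block 0 regulators passed, while 3 were higher and 1 was lower at an unadjusted p under 0.05, and of all genes 0.00492% passed as higher and 0% as lower. When the replicate number was added as a block, Cdx2, Elf5, Gata2 and Gata3 rose and Tead4 fell. In that fit 21% of all genes passed as higher and 6.46% as lower, so the count of regulators that rose is read against a high background. Every call on the values rested on the filter for low values as well: with the block and no filter, limma called 0 of 28250 genes (unadjusted, p was under 0.05 for 3897 higher and 1305 lower genes) and 0 regulators. Cdx2 and Elf5 reached the filter, 0.001 in at least 2 libraries, only in the MS-275 libraries, so they could be tested only because they were higher there, and Gata3 and Hand1 reached it in 1 solvent library. Within both pairs of libraries with the same replicate number, 7 regulators were higher and 1 was lower with MS-275, against 50% and 26.5% of all genes.

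The promoters shown are those of the 4 regulators called higher on the values with the block, a choice made from these same data. The sequences are from the RefSeq promoter table of GRCm38.p6, each 250 bases directly before a transcription start and 5′ to 3′ on the gene's strand. Each was found unchanged in mm9, the build of the deposited alignments, and the mm9 coordinates are given. Capitals mark CG pairs, the site of DNA methylation. Elf5 and Gata2 each have a second start in the table, and the window shown is that of the downstream start.
Cdx2, chr5:148118826-148119075, minus strand: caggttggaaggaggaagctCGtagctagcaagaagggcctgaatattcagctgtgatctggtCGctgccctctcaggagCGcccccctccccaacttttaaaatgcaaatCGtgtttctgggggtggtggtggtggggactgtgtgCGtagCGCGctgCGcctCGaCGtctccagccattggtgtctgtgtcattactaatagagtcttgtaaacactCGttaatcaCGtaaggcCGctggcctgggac
Elf5, chr2:103263975-103264224, plus strand: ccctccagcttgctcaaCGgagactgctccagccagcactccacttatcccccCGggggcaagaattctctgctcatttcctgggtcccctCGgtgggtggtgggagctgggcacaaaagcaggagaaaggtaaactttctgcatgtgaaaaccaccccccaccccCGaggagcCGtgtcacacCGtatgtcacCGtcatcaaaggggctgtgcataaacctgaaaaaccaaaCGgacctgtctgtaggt
Gata2, chr6:88148408-88148657, plus strand: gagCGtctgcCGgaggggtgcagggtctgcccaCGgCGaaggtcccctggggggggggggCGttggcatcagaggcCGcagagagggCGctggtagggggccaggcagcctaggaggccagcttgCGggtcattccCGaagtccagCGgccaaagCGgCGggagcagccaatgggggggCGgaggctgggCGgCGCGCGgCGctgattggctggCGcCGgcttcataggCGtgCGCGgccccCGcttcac
Gata3, chr2:9800228-9800477, minus strand: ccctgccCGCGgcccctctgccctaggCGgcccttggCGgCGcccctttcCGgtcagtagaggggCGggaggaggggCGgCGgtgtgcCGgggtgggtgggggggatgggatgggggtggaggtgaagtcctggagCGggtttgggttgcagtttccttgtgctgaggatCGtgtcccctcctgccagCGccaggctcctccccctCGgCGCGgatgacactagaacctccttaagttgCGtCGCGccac

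The windows shown held 24 CG pairs before Gata2, 19 before Gata3, 13 before Cdx2 and 8 before Elf5. The other windows held 22 before Gata2 and 2 before Elf5. The median over all 32851 promoters of the table was 6. The table held 7 of the 10 regulators, with 10 promoters. Tfap2c, Hand1 and Tead4 were not matched. The GC box letters GGGCGG, searched on both strands as were all motifs here, were in 7 of these 10 promoters, including those of Gata2 and Gata3 but not those of Cdx2 and Elf5, against 32.74% of all promoters. The TEAD letters GGAATG were in 2 of 10, against 12.64%, in the Gata2 window shown and in the Elf5 window that is not shown. The AP-2 core GCCNNNGGC was in 3 of 10, the windows shown of Cdx2, Gata2 and Gata3, against 13.73%. TATAAA, the GATA letters AGATAA and the E-box CACGTG were in 0 of 10, against 12.37%, 9.99% and 6.02%. GGGCGG and GCCNNNGGC can overlap in GC-rich sequence, and a match describes only the letters of its window.

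The values are normalized expression values from Genomatix, a signal per gene whose formula is not given in the sources used here. They are therefore compared between libraries for 1 gene and not between genes. Fold changes are on log2(value + 0.005), which shrinks the change of genes near 0, and were tested with limma over all genes with Benjamini-Hochberg adjustment. An exact permutation test of 2 against 2 libraries cannot go below a two-sided p of 0.333. In the authors' headers replicate 1 of both conditions is called old, and the block pairs the libraries by replicate number. The value of the old libraries followed the alignments called old, which were deposited under replicate 2, so alignments are named old and new here. An exchange of replicates within a condition leaves the conditions as they are, and an exchange between conditions was not examined. Distinct alignment positions on the exons of GENCODE M1 genes were counted as a second measure, since repeated alignments made up 0% of the old files but 53.2% and 54.4% of the new ones. A library had 5910399 to 7697760 such positions. The median fold change of all genes tested was 0.20 (log2) in favour of MS-275, and −0.012 after median-ratio scaling.

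The level of the regulators in solvent, compared per length, covered a wide range. Tfap2c had 216 and 194 distinct positions per kb of exon in the new and old solvent libraries, followed by Tead4 with 113 and 81.5 and Ets2 with 69.0 and 84.9. Ascl2 came next with 32.3 and 44.0 positions per kb. Tfap2a with 22.8 and 16.7 and Gata2 with 15.5 and 17.0 did not separate from each other beyond their spread. Hand1 with 2.00 and 0.501, Gata3 with 1.51 and 0, Elf5 with 0.340 in each library and Cdx2 with 0.442 and 0 formed the lowest level, and their order cannot be told at this depth. Cdx2, Elf5, Gata3 and Hand1 were thus at or near 0 in solvent. Tfap2a, Gata2 and Ascl2 lay between these and Tfap2c, Tead4 and Ets2, which ESC also express.

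**Figure D1:**
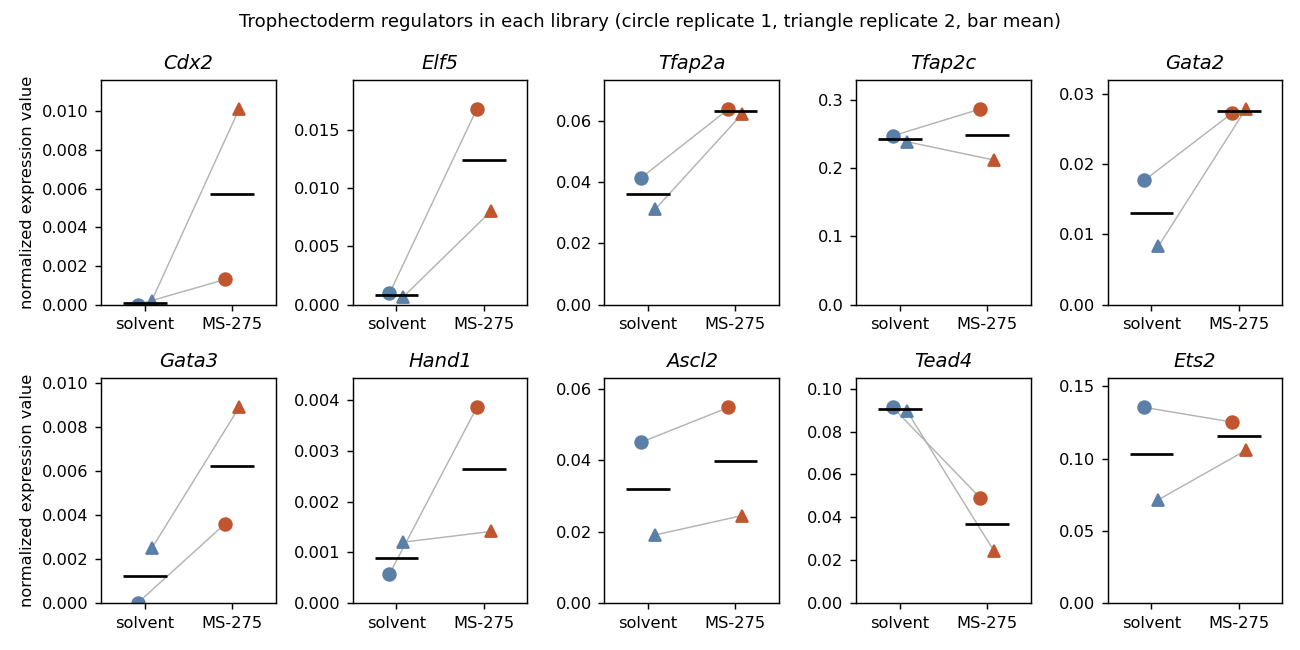
Normalized expression value of each regulator (vertical axis, from 0, its own scale per gene) in the solvent and MS-275 libraries. Circles are replicate 1, triangles are replicate 2, grey lines join libraries with the same number and black bars are means of 2. Both treated points lie above both solvent points in Cdx2, Elf5, Tfap2a, Gata2, Gata3 and Hand1, and below them in Tead4.

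Elf5, an ETS factor that holds cells in the trophoblast lineage together with Cdx2 and Eomes, was near 0 in solvent and higher in both treated libraries. Its value was 0.00096 and 0.00068 in solvent replicates 1 and 2, and 0.0168 and 0.00802 in MS-275 replicates 1 and 2. Both treated libraries were far above both controls, 17.5-fold in the pair of replicate 1 and 11.8-fold in the pair of replicate 2. On the log2 scale with its pseudocount the change was 1.53 (SE 0.370, n = 2 per group), with a limma adjusted p of 0.0784 without and 0.000602 with the replicate block, or 0.261 with the block and no filter. It was 2.81 with a pseudocount of 0.001 and 0.63 with 0.02. The alignments gave 2 distinct positions on Elf5 exons in each solvent library and 26 and 37 in the new and old MS-275 libraries. Summed per group and scaled to all exonic positions, this was 16.4-fold (95% exact interval 6.09 to 62.0). This and every exact interval below hold counting error only and not the spread between libraries. In limma-voom on these positions, which 8 of the 10 regulators entered, Elf5 and Gata3 through the MS-275 libraries alone, the log2 change of Elf5 was 3.58 without the block (adjusted p = 0.0114) and 3.57 with it (adjusted p = 3.54e-06). Elf5 was the only regulator called higher without the block there, where 11.8% of 17582 genes passed as higher and 7.53% as lower. With the block Elf5, Tfap2a, Gata2 and Gata3 were higher and Tead4 was lower, against 23.7% and 21.1% of genes. In limma-voom with the block the spread came from all genes together, so its p-values do not measure the spread of the single gene.

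The Elf5 positions did not spread over the whole gene model (chr2:103251845-103291146, plus strand, mm9, 9 exon blocks). The last block held 32 of the 63 positions with MS-275 and all 4 in solvent, and no library had a position in the first 3 blocks, which hold both starts of the promoter table. Blocks 7 and 8 also hold annotated first exons and had 0 positions in solvent. In the new and old MS-275 libraries block 7 had 0 and 1 positions and block 8 had 5 and 2. The last block makes up 24.3% of the exon length. With 63 positions, 0 in a stretch says only that none was detected at this depth.

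Cdx2, the homeodomain factor that specifies trophectoderm, had values of 0 and 0.0002 in solvent and 0.0013 and 0.0101 with MS-275. The gene was listed at 0 or close to it in both controls and was higher in both treated libraries, which differed from each other more than the controls did. Its log2 change of 0.94 (SE 0.361, n = 2 per group) had a limma adjusted p of 0.217 without and 0.0155 with the block, or 0.432 with the block and no filter. It was 0.31 without MS-275 replicate 2 and 1.57 without MS-275 replicate 1, and 2.21 and 0.33 with pseudocounts of 0.001 and 0.02, so its size was not fixed by these data. On its exons (chr5:148112381-148118846, minus strand) the new alignments had 1 distinct position in solvent and 21 with MS-275, and the old ones 0 and 3. The summed ratio was 25.0 (95% exact interval 4.07 to 1026), and the width of the interval comes from the 1 position in solvent. The positions with MS-275 were in all 3 exon blocks, 19 of 24 in the last. Too few libraries reached 10 positions for Cdx2 to enter the limma-voom fit.

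Gata3, a zinc finger factor that can drive trophoblast genes alongside Cdx2, was listed at 0 and 0.00248 in solvent and at 0.0036 and 0.00889 with MS-275. The lower treated library was above the higher control, by a margin smaller than the gap between the controls. For Gata3 the log2 change was 0.84 (SE 0.332, n = 2 per group), with a limma adjusted p of 0.230 without and 0.0144 with the block, or 0.186 with the block after quantile normalization and 0.259 with the block and no filter. It was 0.49 without MS-275 replicate 2, 0.55 without solvent replicate 1, and 1.85 and 0.30 with pseudocounts of 0.001 and 0.02. The new alignments had 6 distinct positions in solvent and 41 with MS-275, and the old ones 0 and 11, a summed ratio of 9.01 (95% exact interval 3.87 to 25.7). In limma-voom the change was 3.43 without the block (adjusted p = 0.106) and 3.28 with it (adjusted p = 4.23e-06). Gata3 (chr2:9778705-9811661, minus strand) overlaps 4930412O13Rik, 9230102O04Rik and Gm13256 in the annotation, and the alignments were counted without strand, so reads of these genes cannot be told apart where they overlap.

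Gata2, which shares trophoblast targets with Gata3, had values of 0.0177 and 0.0083 in solvent and 0.0272 and 0.0278 with MS-275. The treated libraries were close to each other and above both controls. The log2 change was 0.90 (SE 0.627, n = 2 per group), with a limma adjusted p of 0.554 without and 0.0481 with the block, a call lost beside the block with median-ratio scaling (adjusted p = 0.110), quantile normalization (0.367), pseudocounts of 0.001 (0.0556) and 0.02 (0.0569) and no filter (0.387). It was 0.52 without solvent replicate 2 and 0.54 with the pseudocount of 0.02. Distinct positions on its exons (chr6:88143885-88157024, plus strand) were 52 and 143 in the new solvent and MS-275 libraries and 57 and 96 in the old ones. The summed ratio was 2.28 (95% exact interval 1.81 to 2.89, counting error only). The old and new pairs gave ratios of 1.51 and 3.37, both outside this interval. Limma-voom with the block gave a log2 change of 1.05 (adjusted p = 0.000456). No position was in the most upstream first exon in any library, while the downstream first exon, whose promoter is shown above, had 3 and 6 positions in the new solvent and MS-275 libraries and 2 in each old one.

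**Figure D2:**
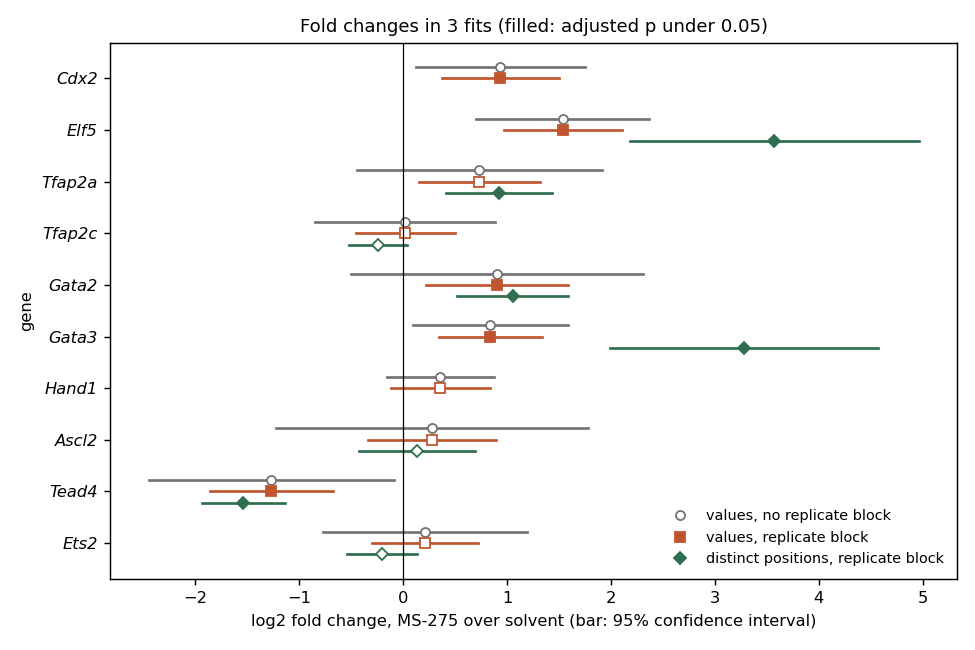
Log2 fold change of MS-275 over solvent (horizontal axis) for each regulator in limma on the values without the block (circles), with the block (squares) and in limma-voom on distinct positions with the block (diamonds, 8 genes). Bars are 95% confidence intervals and filled symbols have an adjusted p under 0.05. Elf5 and Gata3 lie farthest to the right, at 3.57 and 3.28 on positions, and Tead4 is the only regulator left of 0 with a filled symbol.

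Tfap2a, an AP-2 factor of trophectoderm and of surface ectoderm and neural crest, is listed under its older name Tcfap2a. Its value was 0.0413 and 0.0310 in solvent and 0.0637 and 0.0623 with MS-275. Both treated libraries were above both controls, and the log2 change of 0.73 (SE 0.524, n = 2 per group) did not pass limma without the block (adjusted p = 0.570) or with it (adjusted p = 0.0561). On distinct positions (74 and 126 in the new solvent and MS-275 libraries, 54 and 130 in the old) limma-voom with the block gave 0.92 (adjusted p = 0.00142). The summed ratio was 2.08 (95% exact interval 1.68 to 2.59). Tfap2a (chr13:40811044-40829192, minus strand) overlaps the non-coding gene Gm16989 on the other strand.

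Tfap2c, listed as Tcfap2c, is the AP-2 factor of trophoblast stem cells and is also expressed in ESC and germ cells. It had values of 0.248 and 0.239 in solvent and 0.287 and 0.212 with MS-275. One treated library was above and the other below both controls. Between the groups the log2 change was 0.020, with a 95% interval of −0.46 to 0.50 and a limma adjusted p of 0.959 with the block, and its sign turned with median-ratio scaling (−0.26). Its distinct positions, 795 and 572 in the new solvent and MS-275 libraries and 712 and 789 in the old (chr2:172375093-172384122, plus strand), gave a summed ratio of 0.939 (95% exact interval 0.872 to 1.01).

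Hand1, a bHLH factor needed for trophoblast giant cells and also expressed in mesoderm, had values of 0.00057 and 0.0012 in solvent and 0.00386 and 0.00141 with MS-275. The groups did not overlap, but the lower treated library exceeded the higher control only slightly. The log2 change of 0.36 (SE 0.228, n = 2 per group) did not pass limma (adjusted p = 0.504 without and 0.255 with the block) and was −0.011 after quantile normalization. With 5 distinct positions in solvent and 12 with MS-275 on its exons (chr11:57642207-57646320, minus strand), the summed ratio was 2.50 (95% exact interval 0.818 to 9.04), so a difference was not detectable at this depth.

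Ascl2, a maternally expressed imprinted bHLH factor of the spongiotrophoblast, had values of 0.0450 and 0.0190 in solvent and 0.0548 and 0.0245 with MS-275. Replicate 1 was the higher library in both groups, and the groups overlapped. The log2 change was 0.28 (95% interval −0.34 to 0.89 with the block, limma adjusted p = 0.517) and −0.10 after quantile normalization, with a summed ratio of positions of 1.25 (95% exact interval 0.978 to 1.60). The gene lies at chr7:150152727-150155169 on the minus strand.

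Ets2, an ETS factor that trophoblast stem cells need to renew themselves, had values of 0.135 and 0.0715 in solvent and 0.125 and 0.106 with MS-275. Both treated libraries lay between the controls. The log2 change was 0.21 (95% interval −0.30 to 0.72 with the block, limma adjusted p = 0.550), and −0.059 after median-ratio scaling. Its 725 and 686 positions in solvent and MS-275 (chr16:95923682-95942658, plus strand) gave a ratio of 0.984 (95% exact interval 0.885 to 1.09).

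Tead4, the DNA-binding partner of YAP at the start of the trophectoderm programme, had values of 0.0913 and 0.0898 in solvent and 0.0491 and 0.0242 with MS-275. The controls nearly coincided and both treated libraries were below them, at 0.538 and 0.269 times the solvent value of the same replicate number. The log2 change was −1.27 (SE 0.526, n = 2 per group), with a limma adjusted p of 0.251 without and 0.00341 with the block, or 0.298 with the block and no filter. It was −0.82 without MS-275 replicate 2. Distinct exonic positions (chr6:128174306-128250841, minus strand) were 408 and 100 in the new solvent and MS-275 libraries and 293 and 156 in the old. Limma-voom gave −1.54 both without the block (adjusted p = 0.00937) and with it (adjusted p = 1.10e-12). The p-value with the block does not measure the spread of Tead4 itself. Tead4 was the only regulator called lower in these fits, and it passed in 6 of 7 fits with the block.

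The lower Tead4 signal was present along the gene. Scaled to all exonic positions, 12 of its 14 exon blocks were lower with MS-275 in both the old and the new libraries. Intronic positions were fewer too, 126 with MS-275 against 520 in solvent in the new libraries and 183 against 417 in the old, and made up 57.2% of the gene's positions in solvent and 54.7% with MS-275. Among the other regulators with over 50 positions in both groups, the intronic share in solvent and MS-275 was 42.3% and 35.8% for Tfap2a, 12.2% and 11.3% for Tfap2c, 3.54% and 6.27% for Gata2, 2.38% and 0.671% for Ascl2 and 4.48% and 3.11% for Ets2.

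**Figure D3:**
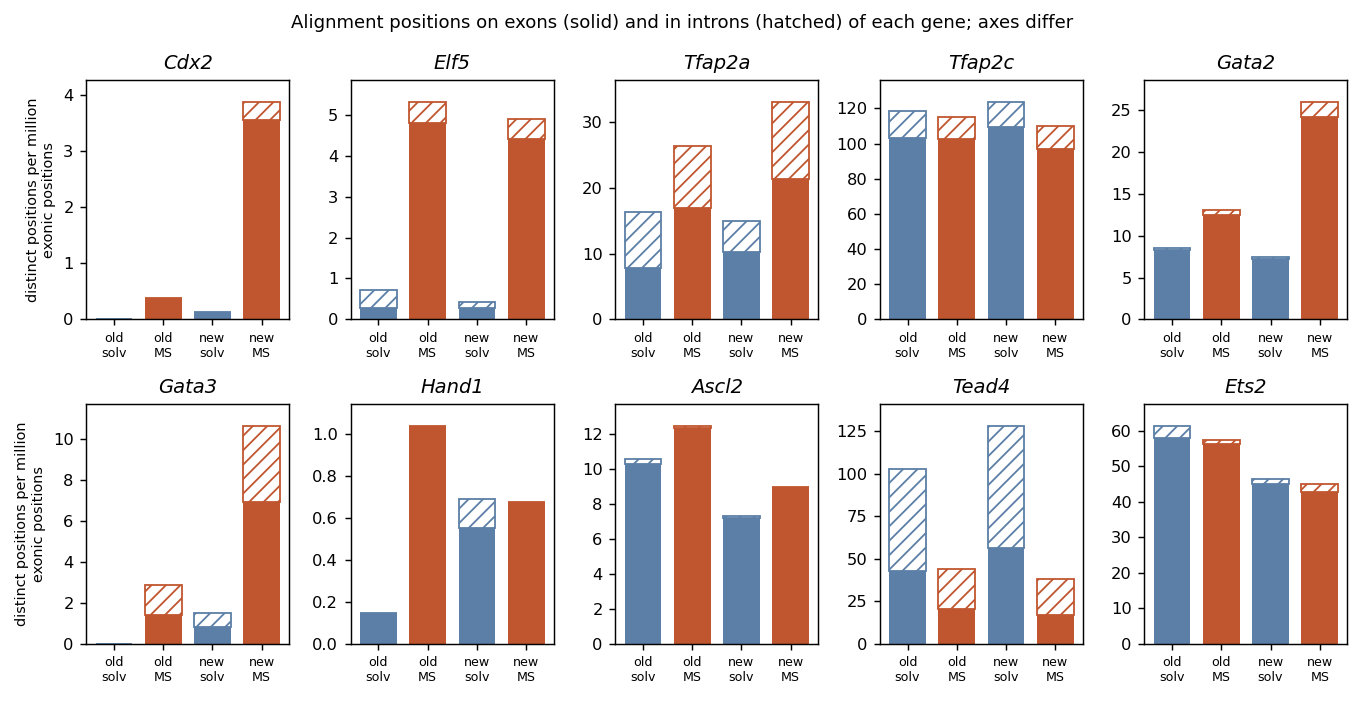
Distinct alignment positions of each regulator per 1000000 exonic positions of the library (vertical axis, from 0, its own scale per gene), on exons (solid) and in introns (hatched), for the old and new solvent (blue) and MS-275 (orange) libraries. The 2 treated bars of Elf5 are of like height (exons 4.81 and 4.40 per 1000000, against 0.290 and 0.276 in solvent), while the new treated library is the higher one in Cdx2 (3.55 against 0.390) and Gata3 (6.94 against 1.43).

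The old and new pairs were set side by side on positions. In the old pair, the treated-to-solvent ratio of these scaled positions was 16.6 for Elf5, 2.16 for Tfap2a, 1.20 for Ascl2, 0.970 for Ets2, 1.51 for Gata2 and 0.477 for Tead4. In the new pair the same ratios were 15.9, 2.09, 1.25, 0.955, 3.37 and 0.301. Elf5, Tfap2a, Ascl2 and Ets2 gave nearly the same ratio in both pairs, and Gata2 and Tead4 differed more between them. Tfap2c had 0.993 in the old pair and 0.882 in the new one. Hand1 differed most, with 7.17 and 1.23. It had 1 and 8 positions in the old solvent and MS-275 libraries and 4 in each new one. For Cdx2 and Gata3 the old solvent library had 0 positions, and no ratio is given.

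Of the 3 Tead paralogs, which bind the same sites as Tead4, Tead2 also fell with the block, from 0.364 and 0.325 in solvent to 0.281 and 0.138 (log2 change −0.79, limma adjusted p = 0.0254). Tead1 had values of 0.455 and 0.696 in solvent and 0.433 and 0.638 with MS-275 (log2 change −0.10, adjusted p = 0.810). Tead3 rose with the block, from 0.0129 and 0.00836 to 0.0284 and 0.0237 (log2 change 1.0, adjusted p = 0.0245). The 4 Tead genes thus changed unequally.

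Of the 20 other paralogs 17 could be tested in the same fit with the block, and 8 were higher and 1 was lower, against the same 21% and 6.46%. Their median log2 change was 0.60, beside 0.20 for all genes tested. With the 3 Tead genes included it was 0.51, and 0.25 after quantile normalization, where the median of all genes tested was −0.032. Cdx1, a homeodomain factor that is expressed later in the embryo, changed most among them, from 0.0214 and 0.00963 to 0.184 and 0.120 (log2 change 2.96, limma adjusted p = 2.68e-06 with the block). Cdx4 had a log2 change of 0.60 and did not pass (adjusted p = 0.105). Tfap2b was listed at 0.0009 and 0 in solvent and at 0.0153 and 0.0377 with MS-275 (log2 change 2.44, adjusted p = 6.32e-05), and Tfap2e changed by 1.57 (adjusted p = 0.000451). Tfap2b, counted among the 8 higher genes, passed the filter only through the treated libraries. It could thus be tested only because it was higher there. Gata1, the erythroid member of its family, rose from 0.0228 and 0.00472 to 0.103 and 0.0365 (log2 change 2.02, adjusted p = 0.000145). Gata4, Gata5 and Gata6, which mark endoderm and heart, had changes of 0.42, 0.30 and 0.27 that did not pass. Of the ETS factors, Ets1 (1.90), Elf3 (0.88) and Ehf (0.79) rose with the block, Elf2 fell by 0.63, and Elf1 (0.40) and Elf4 (−0.58) did not pass. Ascl3 (0.38) and Ascl4 (0.19) did not pass, and Ascl3 too could be tested only through the treated libraries. Tfap2d, Hand2 and Ascl5 were too low to be tested. None of these paralogs passed without the block.

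Genes of the Hippo pathway upstream of the Tead factors, with the Tead genes and their cofactor gene Vgll4 left out, gave 1 higher and 2 lower of 7 with the block (21% and 6.46% of all genes), with a median log2 change of −0.56. Yap1, the co-activator that TEAD4 binds, had values of 0.409 and 0.466 in solvent and 0.196 and 0.132 with MS-275. Both treated libraries were below both controls (log2 change −1.42, limma adjusted p = 0.109 without and 0.000482 with the block). Wwtr1, which encodes the related co-activator TAZ, changed by −0.094 (adjusted p = 0.793 with the block), and the kinase gene Lats1 by −0.60 (adjusted p = 0.0635). Of 5 genes known to be TEAD targets, 2 were higher and 1 lower with the block, against 21% and 6.46% of all genes. Ctgf rose from 0.0668 and 0.265 to 0.414 and 1.61 (log2 change 2.57, adjusted p = 2.38e-06) and Ankrd1 by 1.0 (adjusted p = 0.0150), while Cyr61 changed by 0.18 (adjusted p = 0.586).

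Genes that act beside the regulators in trophoblast stem cells gave 1 higher and 4 lower of 15 with the block, against 21% and 6.46% of all genes, with a median of −0.30. Several of them are also ESC genes. Eomes, the T-box factor of trophoblast stem cells and mesoderm, had values of 0.0166 and 0.00539 in solvent and 0.0245 and 0.0159 with MS-275, which overlapped (log2 change 0.73, adjusted p = 0.0971). Esrrb fell with the block (log2 change −1.34, adjusted p = 0.00844), and Sox2 changed by −0.30 (adjusted p = 0.600).

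Of the epithelial genes of trophectoderm, 5 of 12 were higher and 1 lower with the block, against 21% and 6.46% of all genes, with a median of 0.094. On positions with the block 5 were higher and 4 lower, against 23.7% and 21.1%, with a median of −0.058. Krt18 rose from 0.0394 and 0.0332 to 0.156 and 0.130 (log2 change 1.84, adjusted p = 6.37e-05), and its keratin partner Krt8 rose by 1.13 (adjusted p = 0.0121). Krt7, another trophoblast keratin, changed by −0.56 (adjusted p = 0.215).

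Genes made by differentiated trophoblast gave 6 higher and 1 lower of the 9 that could be tested with the block, against 21% and 6.46% of all genes. The other 8 of the 17 were too low, and 5 of the 17 were listed at 0 in all 4 libraries, among them the spongiotrophoblast marker Tpbpa. Gcm1, the factor of the syncytiotrophoblast, rose from 0.00056 and 0.00196 to 0.0286 and 0.0093 (log2 change 1.82, adjusted p = 0.000880). Plac1 was listed at 0 in both controls and at 0.00968 and 0.00864 with MS-275 (adjusted p = 0.000266), and it passed the filter only through the treated libraries.

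Genes known to bar ESC from the trophoblast fate gave 2 higher and 1 lower of 8 with the block, against 21% and 6.46% of all genes. Pou5f1, which represses Cdx2, had values of 0.727 and 2.33 in solvent and 0.575 and 0.786 with MS-275, which overlapped between the groups. Its log2 change was −0.95, with an adjusted p of 0.661 without and 0.0473 with the block. Nanog changed by −0.23 (adjusted p = 0.679) and Dnmt1 by −0.18 (adjusted p = 0.632). The 2 that rose, named after their values were seen, were the DNA methyltransferase genes Dnmt3a by 1.29 (adjusted p = 0.00255) and Dnmt3b by 0.81 (adjusted p = 0.0127). The markers of ESC as a list were 4 lower and 0 higher of 10 with the block, with a median of −0.65, and none was at 0 in any library.

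**Figure D4:**
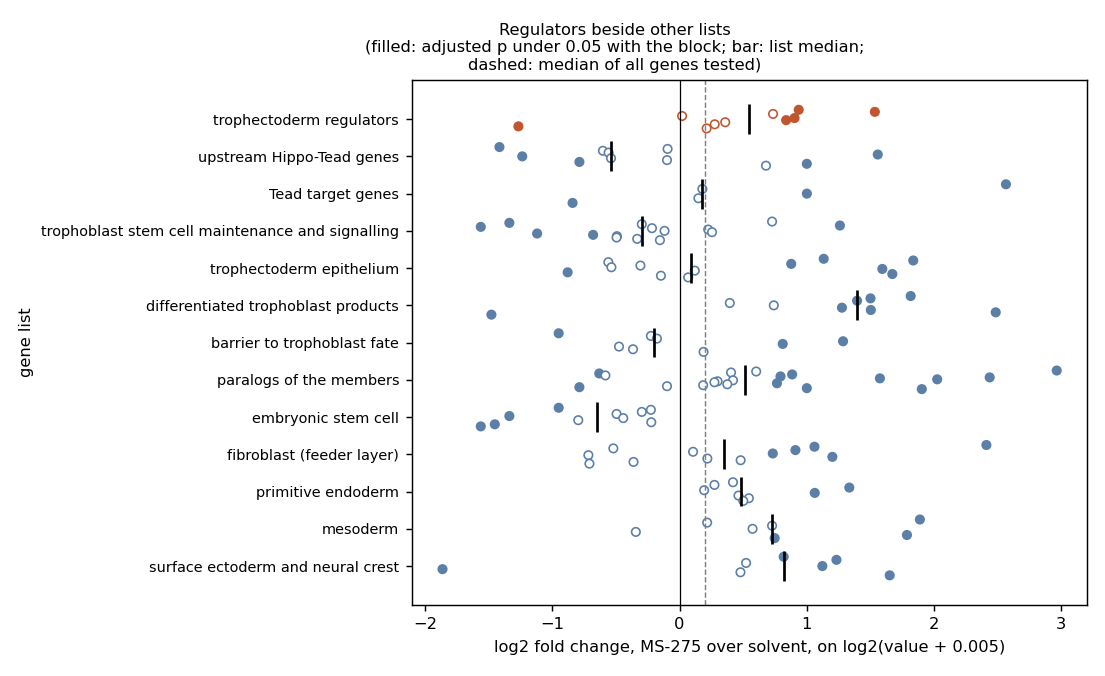
Log2 fold change on log2(value + 0.005) (horizontal axis) of each gene tested in the 10 regulators (orange) and in the other lists (blue). Filled points have an adjusted p under 0.05 with the block, black bars are list medians and the dashed line is the median of all genes tested, 0.20. The regulators' median is 0.55 and that of the ESC markers is −0.65.

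Markers of other lineages were read in the same fit. With the block, 5 of 12 fibroblast markers, 2 of 8 primitive endoderm markers, 3 of 7 mesoderm markers and 4 of 7 markers of surface ectoderm and neural crest were higher, and 1 marker of the last list was lower, against 21% and 6.46% of all genes. Their median changes were 0.35, 0.48, 0.73 and 0.82. In the last list, some genes passed the filter only through the treated libraries. For the fibroblast markers the median was −0.092 after quantile normalization, beside −0.032 for all genes tested. On positions with the block 4 of these markers were higher and 4 lower of 11, against 23.7% and 21.1% of all genes in that fit. The summed value of the fibroblast markers was 1.18 and 2.02 in solvent and 1.27 and 1.45 with MS-275, of which Fn1 alone gave 0.872 and 1.73, then 0.709 and 0.794. The summed value of the mesoderm markers was 0.0473 and 0.0244 in solvent and 0.130 and 0.0755 with MS-275. For primitive endoderm it was 0.265 and 0.0609, then 0.417 and 0.111. For surface ectoderm and neural crest it was 0.0602 and 0.0287, then 0.0880 and 0.0635, with 1 and 2 of these markers at 0 in the solvent libraries and none with MS-275. No marker of the other 3 lists was at 0 in any library. The part of these cells in the regulators' values was not tested, and in bulk RNA fewer cells of a type and less RNA per cell cannot be told apart.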

How the data were processed

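The 4 libraries were grouped by their titles. As deposited by the authors, the values are a Genomatix expression signal per gene from reads placed on mm9; aligner, version and formula are not given in the sources used here. The vehicle is named differently in the sources, so the text says solvent. Tables of ratios and shorter value tables were not used. Genes were tested if 2 or more libraries reached a value of 0.001, and all 10 regulators did. The test was limma 3.58.1 (R 4.3.3) with a trend on log2(value + 0.005), with a Benjamini-Hochberg adjusted p under 0.05 over 20336 genes. The pairing comes from the headers, which call replicate 1 old in both conditions, and deviations from the group means correlated at 0.764 between same-numbered libraries.

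Distinct positions of the 35-base alignments (9785619 to 23467935 per library) were counted on GENCODE M1 exons, and the 17582 genes that had 10 or more in 2 libraries entered limma-voom. With the block, limma-voom took the spread from all genes together, so its p-values there do not measure the spread of the single gene. Values correlated with alignments per exon base at 0.948 to 0.964 when replicates were exchanged within a condition and at 0.857 to 0.915 as deposited (13280 genes). Intervals are Clopper-Pearson. Python 3.11.15, pandas 2.3.3, numpy 2.4.6, pyarrow 21.0.0, scipy 1.17.1 and matplotlib 3.10.9 were used, and the fits were tested on simulated data. The regulators, the other lists and the rule to name all 10 regulators, every paralog and the first 3 of each other trophoblast list were chosen with earlier results of these data known. One paralog is counted but not reported here.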

Additional observations from a re-analysis of the deposited data

How the results depend on the processing

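Without the block, 1 of 20336 genes was higher and 0 lower in limma (2974 and 564 at an unadjusted p under 0.05), and 0 regulators passed (3 higher and 1 lower unadjusted). Genes higher numbered 0 with a pseudocount of 0.001 or 0.02, no filter, quantile normalization, median-ratio scaling or no trend, and 466 when the filter was a mean of 0.01 or more, where 65 were lower. With the replicate block they were 4277 higher and 1314 lower, with median-ratio scaling added 3328 and 2781, with quantile normalization 2936 and 2961, with a pseudocount of 0.001 4216 and 1220, and with 0.02 3790 and 1158. With the block and no filter, an alternative chosen after seeing the data, 0 genes and 0 regulators passed in either direction. Limma-voom on positions gave 2080 and 1324, and 4161 and 3712 with the block. Leaving out 1 library gave 0 to 160 higher and 0 to 29 lower, with the lone sample assumed to vary like the other group, and 0 regulators. Regulators higher were 4 with the block, and 3 with median-ratio scaling or either other pseudocount beside it. They were 2 with quantile normalization beside the block (Cdx2 and Elf5), 1 in limma-voom (Elf5) and 4 with its block. In each of these fits 1 regulator was lower, Tead4. Cdx2 and Elf5 on the values, and Elf5 and Gata3 on positions, entered these fits only through the MS-275 libraries. The regulators' median was 0.84 and 0.25 with the pseudocounts of 0.001 and 0.02, with or without the block, 0.24 with the higher filter and 0.25 after quantile normalization, with or without the block. After quantile normalization the median of all genes tested was −0.032.

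Signs turned only for regulators that passed in no fit. Tfap2c was −0.26 with median-ratio scaling and −0.25 in limma-voom, each with and without the block, and −0.19 to 0.23 without 1 library (−0.0049 without solvent replicate 2). Hand1 was −0.011 and Ascl2 −0.10 after quantile normalization, with and without the block, and Ascl2 was −0.25 to 0.81 without 1 library. Ets2 was −0.059 with median-ratio scaling with and without the block, −0.19 in limma-voom, −0.21 with its block, and −0.23 to 0.65 without 1 library. The cause was not tested. Depth limits Cdx2, Elf5, Gata3 and Hand1, which had 1 to 6 distinct positions in solvent.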
